A study of Mus musculus with 16 samples.

Results

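The interferon regulatory factors (IRFs) are a family of transcription factors that share a DNA-binding domain and act in interferon responses and in the development and activation of blood cells. The genes described here are Irf1, Irf2, Irf3, Irf4, Irf5, Irf7, Irf8, Irf9 and Irf2bp2, which encodes a corepressor that binds Irf2. They were taken by name from a table of 23479 genes, where these 9 were found, and all 9 passed the filter on low counts and were tested among 18430 genes. RNA was sequenced from CD4 T cells of C57BL/6 mouse spleens, purified by immunomagnetic negative selection, in which beads remove the other cell types. Control mice carried no tumour (day 0, 5 libraries), and the other mice had received a transplant of Eu-Myc lymphoma cells and were sampled at day 7 (7 libraries) or day 14 (4 libraries). Eu-Myc lymphoma is a mouse B cell tumour driven by Myc under an immunoglobulin heavy chain enhancer. All 16 libraries share strain, tissue and purification. The mice's age and sex, and whether the transplanted cells came from 1 tumour or clone, are not given in the sources used here, nor is any treatment of the control mice.

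In background terms, cells that sense viral nucleic acids phosphorylate Irf3 and Irf7, which then switch on interferon genes. Interferon binding to its receptors activates STAT proteins. With Irf9 they bind the interferon-stimulated response element (ISRE), and as dimers after interferon gamma they bind the gamma-activated sequence (GAS) and raise Irf1. In T cells Irf4 is induced by T cell receptor signalling and is needed for effector differentiation, Irf1 takes part in Th1 responses, and Irf5 and Irf8 are best known from myeloid cells, B cells and dendritic cells.

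The promoters of the members were searched for the GAS and ISRE, the words that STATs and IRFs bind. The RefSeq promoter table (GRCm38.p6) holds 12 promoters of 300 bases for the 9 genes. The ISRE was searched as GAAA, any 2 bases and GAAA, on either strand, and the GAS as TTCNNNGAA, which reads alike on both strands (N is any base). An ISRE match lay in 1131 of 32851 promoters of this length (3.44%) and a GAS match in 2726 (8.30%). The promoters of Irf3, Irf4, Irf5, Irf7, Irf9 and Irf2bp2 held neither word. The 3 promoters that did are shown as the 250 bases before the start site on the plus strand, 5′ to 3′, with matches in capitals. They lie at chr11:53769764-53770013 for Irf1, chr8:46739495-46739744 for Irf2 and chr8:120736108-120736357 for Irf8.
Irf1: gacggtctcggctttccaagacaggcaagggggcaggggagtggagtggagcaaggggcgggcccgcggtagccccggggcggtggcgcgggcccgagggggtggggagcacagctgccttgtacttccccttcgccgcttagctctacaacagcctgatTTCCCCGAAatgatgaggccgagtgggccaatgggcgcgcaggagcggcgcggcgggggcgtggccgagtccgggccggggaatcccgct
Irf2: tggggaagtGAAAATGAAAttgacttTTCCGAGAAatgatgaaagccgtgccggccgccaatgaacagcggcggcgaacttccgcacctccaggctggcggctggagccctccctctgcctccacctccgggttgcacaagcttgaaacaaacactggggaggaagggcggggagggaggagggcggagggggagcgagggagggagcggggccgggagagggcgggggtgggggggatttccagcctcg
Irf8: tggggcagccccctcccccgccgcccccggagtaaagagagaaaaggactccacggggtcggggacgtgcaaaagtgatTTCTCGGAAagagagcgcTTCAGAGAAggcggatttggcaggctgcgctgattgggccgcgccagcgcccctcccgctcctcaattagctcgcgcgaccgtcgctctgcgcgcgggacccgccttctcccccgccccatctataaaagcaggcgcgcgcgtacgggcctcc
Irf1 has the GAS word TTCCCCGAA at -90 from its start site. Irf2 has the ISRE word GAAAATGAAA at -241 and the GAS word TTCCGAGAA at -224. Irf8 has TTCTCGGAA at -171 and TTCAGAGAA at -153. The other promoter listed for Irf1, and the other for Irf8, held no match. A match describes letters and not binding.

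Gene counts per library ranged from 14493764 to 27340070 and were lowest at day 14 (15909845 ± 1205838, SD, n = 4, against 24548914 ± 2544462 in 5 controls and 21534837 ± 3741219 in 7 day 7 libraries). Reads outside gene models made up 47.1% to 56.7% of a control library, 54.6% to 68.0% at day 7 and 54.4% to 69.8% at day 14. The 8 markers of CD4 T cells, among them Cd3e and Cd4, were above 0 in every library and summed to 3010 to 6615 CPM (read counts scaled to a common library size). Control libraries 1 and 2 and day 14 library 4 stood apart in transcripts of other cells: the 9 neutrophil markers summed to at most 2347 CPM in controls and 1386 CPM at day 14, against 1.20 to 34.6 CPM at day 7. In 5 libraries (control 1 and 2, day 7 libraries 6 and 7, day 14 library 4) 4 Y-linked transcripts summed to 352 CPM or more, and to at most 3.55 CPM in the other 11. The X-linked transcript Xist stood at 8.71 CPM or less in those 5 libraries. Among the 11 it was at 9.32 CPM in day 14 library 1 and at 1625 CPM or more in the rest. In bulk samples fewer cells of a type and less RNA per cell cannot be told apart.

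Irf1 was the member that passed between the tumour groups in the edgeR fit of all libraries. It was also the most or second most abundant of the family per unit of annotated exon length. This length merges all exons annotated for a gene and can exceed that of the transcript present, so the order between genes depends on the annotation. For Irf7 it was 3776 bases, the whole gene from 141262706 to 141266481. Over all 16 libraries it averaged 62.5 ± 14.0 CPM per kb of exon (SD), followed by Irf2bp2 at 55.6 ± 9.38, Irf2 at 38.3 ± 6.45, Irf3 at 25.2 ± 4.75, Irf7 at 22.5 ± 6.33, Irf9 at 17.4 ± 3.47 and Irf4 at 9.56 ± 5.08 CPM per kb. The lower end was held by Irf8 (3.47 ± 3.63) and Irf5 (2.32 ± 1.98 CPM per kb). Irf2bp2 lay above Irf2, and Irf2 above Irf3, in 16 of 16 libraries. Neighbours that did not keep their order were Irf1 and Irf2bp2 (Irf1 above in 10 of 16), Irf3 and Irf7 (Irf3 above in 9 of 16) and Irf8 and Irf5 (Irf8 above in 12 of 16). At day 7 Irf1 lay above Irf2bp2 in 7 of 7 libraries, at 73.6 ± 7.75 against 52.2 ± 4.53 CPM per kb, while in controls Irf2bp2 was above in 3 of 5 (65.3 ± 9.35 against 60.6 ± 3.73) and at day 14 in 3 of 4 (49.6 ± 7.06 against 45.4 ± 12.6).

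**Figure D1:**
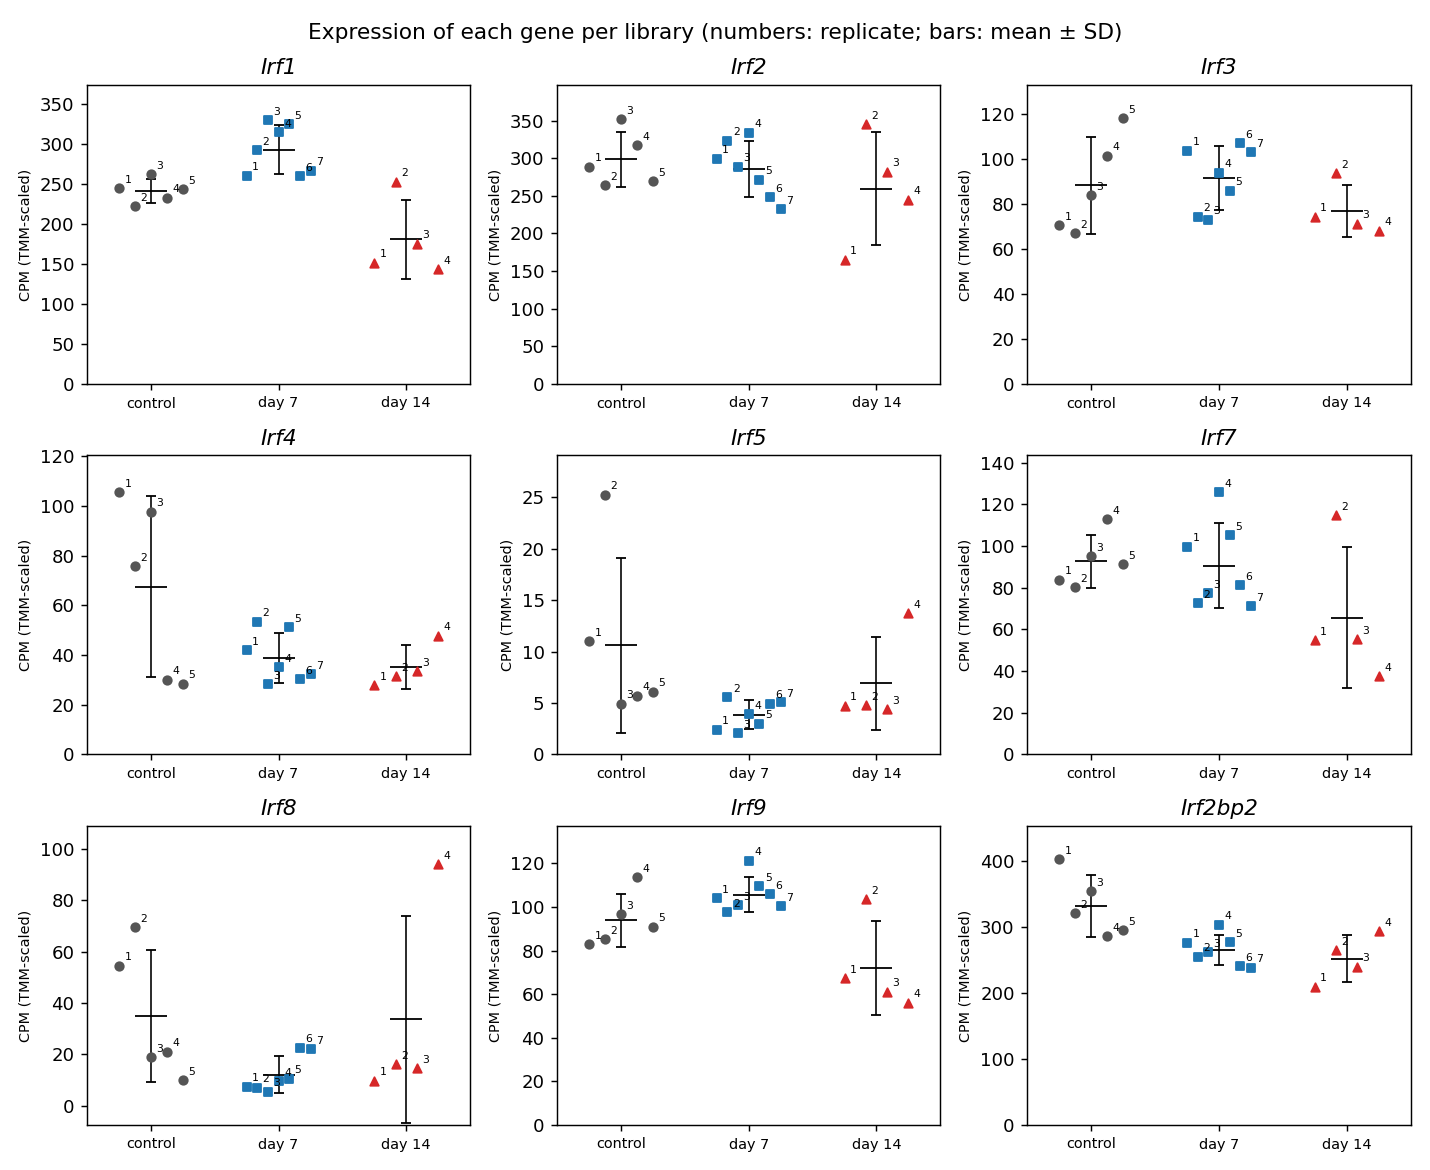
CPM (y axis, linear, 1 panel per gene) of the 9 genes in each library by group (x axis); numbers mark the replicate and bars give the mean and SD of 5 control, 7 day 7 and 4 day 14 libraries. Irf1 at day 14 (143 to 253 CPM) lies below every day 7 library (260.0 to 329.9 CPM), Irf8 spans 5.39 to 94.0 CPM, and Irf4 is at 75.7 CPM or more only in control libraries 1 to 3.

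Few members passed the test. Day 7 against control asked what differed early after transplant, and none of the 9 passed, where 0.0109% of all tested genes did (2 genes, edgeR quasi-likelihood test, Benjamini-Hochberg adjusted p below 0.05). At an unadjusted p below 0.05 there were 5 members, against 21.1% of all genes: 4 lower (12.7% of all genes) and 1 higher (8.43%). DESeq2 called 3 members lower, where it called 8.45% of all genes lower (1104 of 13067 with an adjusted p), and limma-voom called 0 lower (0% of all genes). No member's libraries separated fully from the controls at day 7, where 0.982% of all genes did as lower and 0.988% as higher. Day 14 against control asked the same later, and again 0 of 9 passed, against 3.13% of all genes (1.33% higher and 1.8% lower). Here 4 members had an unadjusted p below 0.05, against 22.4% of all genes, and they were lower (11.8% of all genes, with 10.5% higher). DESeq2 called 1 lower (3.79% of all genes) and limma-voom 0 (2.52%). Again no member's groups separated fully, where 2.85% of all genes did as lower and 5.24% as higher. All 9 log2 changes were negative at day 14 against control, where 42.3% of all genes were, with a median of -0.40 against 0.12 over all genes. That count of 9 was also 9 with RLE scaling and 8 with library totals alone (Irf8 was not negative), a scaling that moved the median of all genes to 0.32; all 9 members lay below the median of all genes under each. The signs of Irf8 and Irf5 at day 14 against control also depended on other settings. Without control libraries 1 and 2 Irf8 changed by 1.01, and Irf5 reached 0.31 in an alternative. The other members stayed negative in every alternative. Day 14 against day 7 called 1 of 9 members, Irf1, against 0.966% of all genes (0.553% lower and 0.412% higher). At an unadjusted p below 0.05 there were 3 members (14.8% of all genes), 2 lower (8.27%) and 1 higher (6.54%). DESeq2 and limma-voom each called 2 lower, Irf1 and Irf9 (2.9% and 0.559% of all genes). Libraries separated fully for 1 member as lower (2.78% of all genes) and for 0 as higher (1.77%). It gave 7 negative changes with both TMM and RLE scaling (40.6% of all genes with TMM) and 4 with library totals, which moved the median of all genes from 0.12 to 0.29; 7 lay below that median under each scaling. The day 7 and day 14 comparisons share the control libraries.

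**Figure D2:**
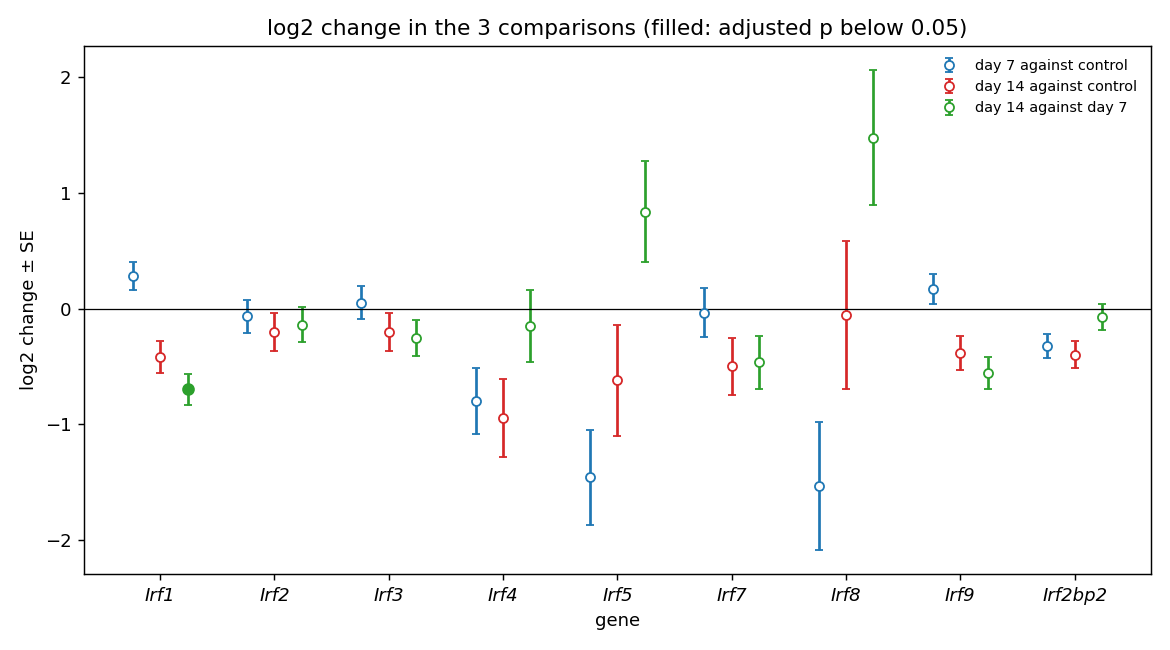
Log2 change (y axis, bars ± SE) of each gene (x axis) in the 3 comparisons; filled points have an edgeR adjusted p below 0.05. Irf1 at day 14 against day 7 (-0.70) is the filled point, and the widest bars belong to Irf8 (SE 0.56 to 0.64) and Irf5 (SE 0.41 to 0.48).

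Irf1 encodes an activator induced by interferon gamma, and it fell 1.62-fold from day 7 to day 14. The gene lies on chromosome 11 from 53770014 to 53778374 (GRCm38, plus strand). Control libraries 1 to 5 had 245, 222, 262, 233 and 243 CPM. Day 7 libraries had 260.0 to 329.9 CPM with a median of 293 CPM. Day 14 libraries 1 to 4 had 151, 253, 175 and 143 CPM. All 4 day 14 libraries lay below all 7 day 7 libraries, and 5 of 7 day 7 libraries lay above every control. Means were 241 ± 14.8, 293 ± 30.8 and 181 ± 49.9 CPM (SD, n = 5, 7 and 4). The log2 change from day 7 to day 14 was -0.70 ± 0.13 (SE) with an edgeR adjusted p of 0.0200. Against control it was 0.28 ± 0.12 at day 7 (adjusted p = 0.190) and -0.42 ± 0.14 at day 14 (adjusted p = 0.0967), so neither passed. Summed markers of CD4 T cells had medians of 5211 CPM in controls, 5595 CPM at day 7 (4546 to 6615) and 4012 CPM at day 14 (3457 to 4929); all 8 were above 0 in every library and 0 of 8 passed in any comparison, with 8 of 8 changes negative at day 14 against day 7. The 5 markers of dividing cells, such as Mki67, summed to 261 to 3851 CPM in controls, 166 to 631 CPM at day 7 and 343 to 1798 CPM at day 14, and 0 of 5 passed, with 5 of 5 changes positive at day 14 against day 7. The part of either list in the Irf1 difference was not tested. The call at day 14 against day 7 was lost without day 7 library 5 (adjusted p = 0.0659) or without day 14 library 1, 3 or 4 (0.0707, 0.0838 and 0.0970). Without day 14 library 2, the highest of its group, the log2 change was -0.91 (adjusted p = 0.000793) and Irf1 also passed against control (-0.63, adjusted p = 0.00516).

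Irf9 and Irf7, the IRFs of the type I interferon response, followed Irf1 across libraries without passing the test. Irf9, the DNA-binding part of the STAT-containing complex (chromosome 14, 55603571 to 55610030), stood at 82.9, 85.1, 96.8, 114 and 90.9 CPM in controls. It ranged from 97.7 to 121 CPM at day 7 with a median of 104 CPM and was 67.3, 104, 61.1 and 56.1 CPM at day 14. Day 14 libraries 1, 3 and 4 thus lay below every other library, while library 2 lay among the day 7 values. Irf9 changed by -0.55 ± 0.14 (log2, SE) at day 14 against day 7 (edgeR adjusted p = 0.0638), -0.38 ± 0.15 at day 14 against control (0.140) and 0.17 ± 0.13 at day 7 against control (0.485). It passed as lower at day 14 against day 7 with limma-voom (-0.60, 0.0415), with DESeq2 (-0.52, 0.0110), in a fit of the 2 groups alone (-0.55, 0.0402), and without control library 2 (-0.55, 0.0366) or control libraries 1 and 2 (-0.56, 0.0262).

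Irf7, the amplifier of type I interferon production that interferon itself induces (chromosome 7, 141262706 to 141266481), gave 83.7, 80.3, 95.0, 113 and 91.2 CPM in controls. Day 7 values were 71.1 to 126 CPM with a median of 81.3 CPM, and day 14 values 54.8, 115, 55.3 and 37.4 CPM. Again libraries 1, 3 and 4 of day 14 were the lowest of all 16 and library 2 was among the highest. The log2 changes were -0.03 ± 0.21 at day 7 (edgeR adjusted p = 0.951) and -0.50 ± 0.24 at day 14 (0.232) against control, and -0.46 ± 0.23 at day 14 against day 7 (0.358). Without day 14 library 2, Irf7 passed as lower against control (-0.92, 0.0112) and day 7 (-0.88, 0.0221), and so did Irf9 (-0.61, 0.00641, and -0.79, 0.00203). In that setting 1458 of all genes passed against control and 377 against day 7. Library 2 had the lowest share of reads outside gene models at day 14 (54.4%, against 62.3% to 69.8% in the others), and the part of this share in the levels was not tested. Over the 16 libraries, which also differ in depth and group, the Pearson r with this share was -0.59 for Irf7, -0.45 for Irf9 and -0.30 for Irf1.

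Irf3, the constitutive partner of Irf7 in interferon induction (chromosome 7, 44997648 to 45002848), showed this pattern in part. Day 14 library 2 was again the highest of its group, but libraries 1, 3 and 4 were not the lowest of all 16. Its values were 70.7, 67.0, 84.0, 102 and 118 CPM in controls, 73.0 to 107 CPM at day 7 with a median of 93.9 CPM, and 74.4, 93.6, 71.3 and 68.1 CPM at day 14. Every day 14 library lay inside the control range. The log2 change was -0.20 ± 0.17 at day 14 against control (edgeR adjusted p = 0.464), 0.05 ± 0.14 at day 7 against control (0.878) and -0.25 ± 0.16 at day 14 against day 7 (0.481). Exons of Irf3, Irf5 and Irf7 overlap those of Bcl2l12, Tnpo3 and Phrf1 on the opposite strand, and exons of Irf9 overlap those of Rnf31 on the same strand. Reads that the counting marked as ambiguous between genes were set aside (0.177% to 0.374% of a library's counts), so reads of an overlap may be missing from a member. Whether counting used the strand is not given, so the effect of these overlaps on the members' levels is not known. None of these 4 neighbours passed in any comparison, with log2 changes from -0.24 to 0.22. Both ends were Rnf31, whose values had the signs of those of Irf9: 0.22 at day 7 against control and -0.24 at day 14 against day 7 (edgeR adjusted p = 0.208 and 0.293, unadjusted 0.0388 and 0.0361), beside 0.17 and -0.55 for Irf9.

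Over the 16 libraries Irf7 and Irf9 had a Pearson r of 0.89, Irf1 and Irf9 0.88, and Irf1 and Irf7 0.75, on log2(CPM + 1). Irf3 had 0.62 with Irf9 and 0.57 with Irf7, and Irf2 had 0.61 with Irf7. These are descriptions over libraries that share depth and day 14 library 2. A list of 22 ISRE-type interferon-stimulated genes, such as Isg15 and Ifit1, was set beside them as the mean log2(CPM + 1) of its genes. Irf7 followed this index with r = 0.84 (18 of 22 genes above 0.5), Irf9 with 0.80 (17 of 22) and Irf1 with 0.72 (14 of 22). The index was 5.45 in day 14 library 2, the highest of all, and 4.20, 4.46 and 4.10 in libraries 1, 3 and 4, the 3 lowest. Controls ranged from 4.59 to 5.38 and day 7 from 4.58 to 5.27.

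**Figure D3:**
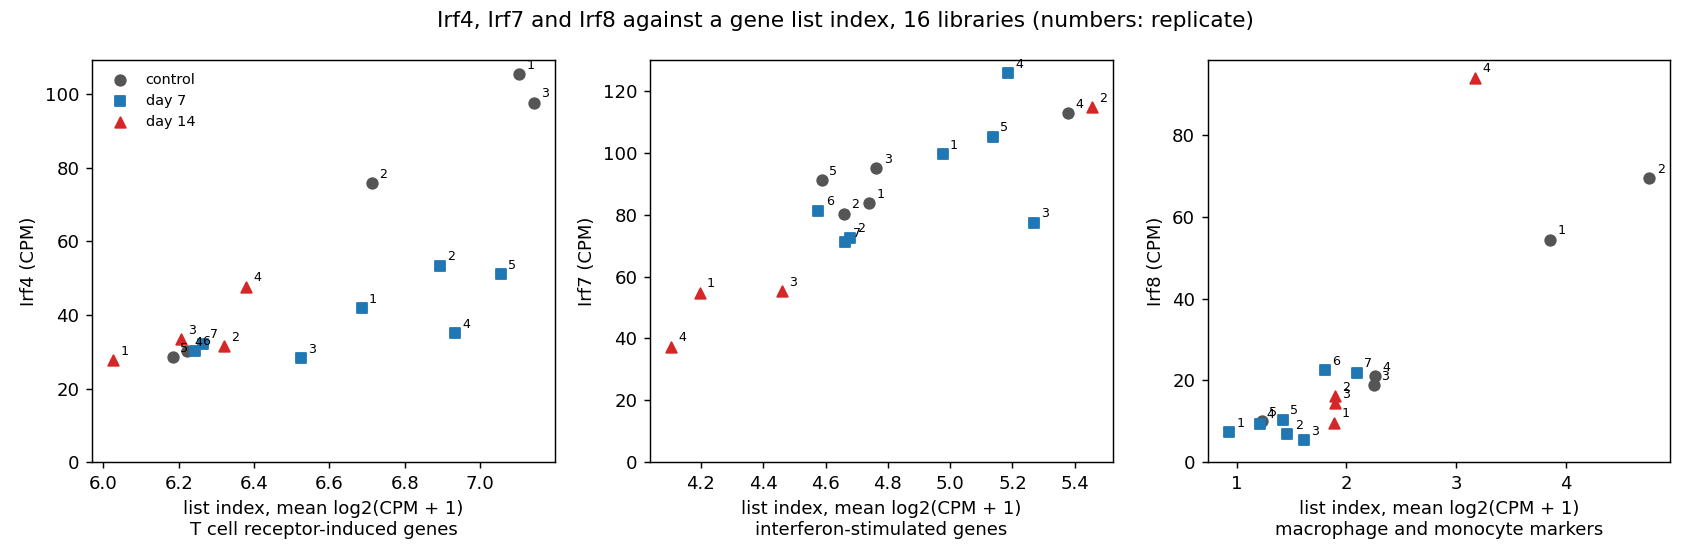
Each point is 1 of 16 libraries, coloured by group. The panels set the CPM (y axis, linear) of Irf4, Irf7 and Irf8 against a list index (x axis), the mean log2(CPM + 1) of the listed genes. The lists are T cell receptor-induced genes (r = 0.80), interferon-stimulated genes (r = 0.84) and macrophage and monocyte markers (r = 0.88). Each r was computed with the member also on log2(CPM + 1). Control libraries 1 and 2 and day 14 library 4 are at the high end of the Irf8 panel.

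Irf4, the factor induced in proportion to T cell receptor signalling (chromosome 13, 30749226 to 30766976), split the controls. Control libraries 1 to 3 had 105, 75.7 and 97.6 CPM, and libraries 4 and 5 had 30.1 and 28.5 CPM. Day 7 libraries had 28.2 to 53.3 CPM with a median of 35.1 CPM, and day 14 libraries 27.7, 31.5, 33.4 and 47.7 CPM. Every tumour library lay below control libraries 1 to 3, and both tumour groups overlapped control libraries 4 and 5. The log2 change was -0.80 ± 0.28 at day 7 (edgeR adjusted p = 0.114) and -0.94 ± 0.34 at day 14 (0.115) against control, and -0.15 ± 0.31 at day 14 against day 7 (0.841). With DESeq2 Irf4 passed as lower at day 7 (-0.78, 0.0417). Without control library 5 it passed at both times (-0.99, 0.0316, and -1.14, 0.0384), and without control libraries 1 and 2 the changes were -0.42 (0.562) and -0.57 (0.263).

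The same 3 control libraries were high in some of the genes that the T cell receptor induces. The mean log2(CPM + 1) of the 10 listed genes was 7.10, 6.71 and 7.14 in control libraries 1 to 3 and 6.22 and 6.18 in libraries 4 and 5. It ranged from 6.24 to 7.05 at day 7, where libraries 2, 4 and 5 lay above control library 2, and from 6.03 to 6.38 at day 14. Nr4a2, a nuclear receptor of the immediate early response, was chosen after its values were seen. It stood at 196, 164 and 189 CPM in control libraries 1 to 3 and at 27.7 and 21.0 CPM in libraries 4 and 5, with 23.1 to 136 CPM at day 7 and 29.9 to 56.3 CPM at day 14. Of 10 genes of this list, 6 had an r above 0.5 with Irf4: Egr1 (0.88), Nr4a2 (0.86), Cd69 (0.78), Nr4a3 (0.77), Nr4a1 (0.76) and Nfkbid (0.51). The other 4 had an r below 0: Egr3 (-0.40), Myc (-0.16), Cd5 (-0.15) and Egr2 (-0.13). No gene of the list passed with edgeR in any of the 3 comparisons. At an unadjusted p below 0.05 there were 1, 4 and 3 of 10, where 21.1%, 22.4% and 14.8% of all genes were. DESeq2 called 0, 1 and 1 and limma-voom 0. Over all genes DESeq2 called 1551 of 18425 at day 14 against control, and 2.9% as lower at day 14 against day 7. With edgeR 6, 8 and 8 of 10 changes were negative at day 7 against control, day 14 against control and day 14 against day 7. Over all genes 43.8%, 42.3% and 40.6% were negative. Medians of the list were -0.12, -0.35 and -0.48 (with library totals 6, 6 and 8 negative, and 7, 8 and 8 below the median of all genes). Its most abundant gene, Cd5, a brake on T cell receptor signalling, changed by 0.40 ± 0.16 (adjusted p = 0.141), -0.22 ± 0.18 (0.465) and -0.62 ± 0.17 (0.0835).

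Some genes that are known to depend on Irf4 in activated CD4 T cells rose at day 14. Their list was chosen with earlier results of these data known, so its counts beside all genes are descriptions. Whether Irf4 had a part in these changes was not tested. Of 18 listed genes, 6 were called higher and 0 lower at day 14 against control, where 1.33% of all genes were called higher, and the median was 0.72 against 0.12 over all genes. Pdcd1, which encodes PD-1, changed by 1.84 ± 0.39 (log2, SE), Cxcr5, the receptor for B cell follicles, by 1.53 ± 0.31, Maf, a factor of follicular helper cells, by 1.31 ± 0.22 and Tnfrsf4, which encodes OX40, by 1.07 ± 0.17 (edgeR adjusted p = 0.0233, 0.0186, 0.00817 and 0.00812). Against day 7, 6 of 18 passed as higher (0.412% of all genes): the largest were Pdcd1 (1.53 ± 0.35, adjusted p = 0.0450), Tnfrsf4 (1.25 ± 0.16, 0.00126), Maf (1.05 ± 0.20, 0.0209) and Prdm1, which encodes Blimp-1, at 20.2 ± 6.14 against 9.999 ± 1.64 CPM (log2 change 1.02 ± 0.21, adjusted p = 0.0280). Irf4 itself stood at 35.1 ± 8.74 CPM at day 14 and 38.9 ± 10.1 CPM at day 7. In a fit of the day 14 and control libraries alone, where 4 genes passed in all, none of the 4 genes named for it did (adjusted p = 0.0639 to 0.0852). Pdcd1 and Cxcr5 also did not pass against control without control library 3 or day 14 library 3 or 4 (0.0536 to 0.0878), nor Pdcd1 without control library 1 (0.0505). Against day 7, Pdcd1, Maf and Prdm1 did not pass without day 7 library 5 or day 14 library 3 or 4 (0.0526 to 0.204), Pdcd1 and Prdm1 without day 7 library 3 or 4 or day 14 library 1 (0.0504 to 0.0861), and Pdcd1 without day 7 library 1, 6 or 7 or control library 3 or 4 (0.0540 to 0.117). At day 7 none of the 18 passed (0 at an unadjusted p below 0.05 and 0 with DESeq2 or limma-voom), and the median was 0.03; Gata3, the most abundant, changed by 0.01 ± 0.13 (adjusted p = 0.984).

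Irf4 and Irf8 bind DNA weakly alone and pair with other factors. Of 14 such partners, among them the AP-1 proteins and PU.1, 1 passed, Jun as lower at day 14 against day 7 (0.553% of all genes). At an unadjusted p below 0.05 there were 2 at day 7 and 5 at day 14 against control, and 4 at day 14 against day 7. Over all genes these shares were 21.1%, 22.4% and 14.8%. DESeq2 called 1, 2 and 3 partners and limma-voom 0, 0 and 1. Over all genes DESeq2 called 1603 of 13067 at day 7 and 1551 of 18425 at day 14 against control. At day 14 against day 7 the shares called lower were 2.9% with DESeq2 and 0.559% with limma-voom. Jun fell from 912 ± 375 to 363 ± 49.4 CPM (log2 change -1.33 ± 0.28, edgeR adjusted p = 0.0318) and stood at 677 ± 116 CPM in controls. Day 7 libraries 6 and 7, those with abundant Y-linked transcripts, were at 397 and 417 CPM, inside the day 14 range of 335 to 437 CPM, and the other 5 were at 900.1 to 1302 CPM. The call was lost without day 7 library 1, 4 or 5 or day 14 library 1, 3 or 4 (adjusted p = 0.0639 to 0.125). Ets1, the most abundant partner, changed by 0.22 ± 0.15 at day 7 (adjusted p = 0.408) and -0.09 ± 0.17 at day 14 (0.735) against control.

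Irf8, which drives monocyte and dendritic cell development (chromosome 8, 120736358 to 120756694), had the widest SE of the members. Controls had 54.5, 69.5, 18.8, 21.1 and 9.97 CPM, day 7 libraries 5.39 to 22.5 CPM with a median of 9.42 CPM, and day 14 libraries 9.66, 16.1, 14.4 and 94.0 CPM. The 3 highest values were those of control libraries 1 and 2 and day 14 library 4. The log2 change was -1.53 ± 0.56 at day 7 (edgeR adjusted p = 0.119) and -0.05 ± 0.64 at day 14 (0.962) against control, and 1.48 ± 0.58 at day 14 against day 7 (0.233). Single libraries moved these values: without day 14 library 4 they were -1.38 (0.181) at day 14 against control and 0.15 (0.922) against day 7. Without control libraries 1 and 2 they were -0.46 (0.745) at day 7 and 1.01 (0.296) at day 14 against control.

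Irf8 moved with markers of myeloid cells. The 9 macrophage and monocyte markers, such as Csf1r and Lyz2, summed to 406 and 974 CPM in control libraries 1 and 2 and 383 CPM in day 14 library 4, against 22.3 to 81.3 CPM in the other 13 libraries. In day 7 libraries up to 3 of these 9 markers were at 0. The Pearson r of Irf8 with the index of this list was 0.88 (6 of 9 genes above 0.5), with 9 neutrophil markers 0.81 (9 of 9), with plasmacytoid dendritic cell markers 0.84 (3 of 6), with conventional dendritic cell markers 0.76 (6 of 7) and with 9 B cell markers 0.69 (4 of 9). These markers' part in the Irf8 differences was not tested. Sfpi1, an older symbol for the gene of PU.1, a myeloid and B cell factor that pairs with Irf8, was chosen after its values were seen: it reached 27.2 and 57.9 CPM in control libraries 1 and 2 and 39.1 CPM in day 14 library 4, and at most 4.29 CPM elsewhere.

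Control libraries 1 and 2 and day 14 library 4 also carried abundant Y-linked transcripts, as did day 7 libraries 6 and 7. In these day 7 libraries the macrophage and monocyte markers summed to only 55.9 and 70.4 CPM. Irf8 stood at 54.5 to 69.5 CPM in control libraries 1 and 2, at 21.9 to 22.5 CPM in day 7 libraries 6 and 7, and at 94.0 CPM in day 14 library 4. Among the 11 libraries with few Y-linked transcripts it stood at 9.97 to 21.1 CPM in 3 controls, 5.39 to 10.4 CPM in 5 day 7 libraries and 9.66 to 16.1 CPM in 3 day 14 libraries. Within either set the lowest value was from day 7, and with few Y-linked transcripts the day 7 range overlapped both other groups. In 2 alternatives chosen after the data were seen Irf8 passed as lower at day 7 against control: with Y-linked transcripts as a covariate (-1.02, edgeR adjusted p = 0.0328) and over the 11 libraries (-1.10, 0.0470). With the covariate it was also higher at day 14 than at day 7 (1.17, 0.00857), which over the 11 libraries did not pass (0.76, 0.136). Y-linked transcripts and myeloid markers were both high in control libraries 1 and 2 and day 14 library 4, so their parts cannot be told apart there.

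Irf5, a factor of inflammatory cytokine genes in myeloid and B cells (chromosome 6, 29526625 to 29541871), followed Irf8 (r = 0.87 over 16 libraries). It stood at 11.01, 25.3, 4.94, 5.71 and 6.10 CPM in controls, 2.06 to 5.58 CPM at day 7 with a median of 3.92 CPM, and 4.72, 4.80, 4.41 and 13.7 CPM at day 14. The same 3 libraries were again the highest, and 4 of 7 day 7 libraries lay below every control. The raw counts behind these levels were 31 to 559 reads per library. The log2 change was -1.46 ± 0.41 at day 7 (edgeR adjusted p = 0.0787) and -0.62 ± 0.48 at day 14 (0.438) against control, and 0.84 ± 0.44 at day 14 against day 7 (0.390). At day 7 it passed as lower with DESeq2 (-1.42, 0.0145) and without control library 5 (-1.60, 0.0341). Without control libraries 1 and 2 the change at day 7 was -0.53 (0.561). Irf5 had an r of 0.89 with the macrophage and monocyte index and 0.89 with the neutrophil index, whose part was not tested.

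Irf2 and Irf2bp2, a repressor of interferon-induced genes and its corepressor, did not pass either. Both lie on chromosome 8, from 46739732 to 46847458 and from 126588296 to 126593986. Irf2 gave 289, 264, 352, 318 and 269 CPM in controls, 232 to 334 CPM at day 7 with a median of 289 CPM, and 165, 345, 282 and 245 CPM at day 14. The groups overlapped, and the log2 changes were -0.06 ± 0.14, -0.20 ± 0.16 and -0.14 ± 0.15 at day 7 against control, day 14 against control and day 14 against day 7 (edgeR adjusted p = 0.848, 0.458 and 0.710). Irf2bp2 gave 403, 321, 354, 287 and 295 CPM in controls, 239 to 304 CPM at day 7 with a median of 262 CPM, and 209.8, 265, 239.9 and 294 CPM at day 14. Here 6 of 7 day 7 libraries and 3 of 4 day 14 libraries lay below every control. The log2 change was -0.33 ± 0.10 at day 7 (adjusted p = 0.0904) and -0.40 ± 0.12 at day 14 (0.0711) against control, and -0.07 ± 0.11 at day 14 against day 7 (0.784). DESeq2 called Irf2bp2 lower at both times (-0.31, 0.0291, and -0.35, 0.0356), and so did edgeR at day 7 without control library 5 (-0.36, 0.0483). Over the 16 libraries Irf2bp2 had an r of -0.71 with the share of reads outside gene models and 0.71 with the share of reads placed at several positions, whose part was not tested. Its paralogs Irf2bp1 and Irf2bpl did not pass in any comparison with edgeR, DESeq2 or limma-voom (0, 1 and 0 of them at an unadjusted p below 0.05), and Irf2bpl changed by 0.14 ± 0.18 at day 7 and -0.02 ± 0.20 at day 14 against control (adjusted p = 0.688 and 0.957).

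The other genes of the interferon pathway held 2 genes that passed. Beside the DESeq2 counts at day 7 against control below, DESeq2 called 1603 of 13067 genes over all in that comparison. None of 18 sensors, adaptors and kinases upstream of the IRFs passed with edgeR in any comparison (5, 2 and 3 at an unadjusted p below 0.05, where 21.1%, 22.4% and 14.8% of all genes were, 2, 0 and 0 with DESeq2, 0 with limma-voom), and their most abundant gene, Ikbke, an IRF3 and IRF7 kinase, changed by 0.35 ± 0.16 at day 7 (edgeR adjusted p = 0.227) and 0.01 ± 0.18 at day 14 (0.975) against control. Of 5 interferon ligands only Ifng passed the filter on low counts, at 15.7 ± 8.24, 16.7 ± 6.82 and 17.4 ± 5.34 CPM in the 3 groups (adjusted p = 0.918 and 0.821 against control). Among 11 receptors, Janus kinases, STATs and their inhibitors, 1 was higher and 1 lower at day 14 against control, where 1.33% and 1.8% of all genes were. Against day 7, 1 was higher (0.412% of all genes). At an unadjusted p below 0.05 there were 4 of 11 against control (22.4% of all genes) and 6 of 11 against day 7 (14.8%). Socs3, a feedback inhibitor of cytokine signalling, went from 82.8 ± 19.4 CPM in controls up to 198 ± 58.4 CPM (1.26 ± 0.18 on the log2 scale, edgeR adjusted p = 0.00405), and stood at 71.2 ± 7.67 CPM at day 7 (1.47 ± 0.17 at day 14 against day 7, adjusted p = 0.000348). Ifngr2, the signalling chain of the interferon gamma receptor, fell from 99.8 ± 38.7 to 43.5 ± 7.69 CPM (-1.20 ± 0.23, adjusted p = 0.0135), a call lost without day 14 library 3 (-1.13, 0.0673). Its controls split as for Irf4, with 132, 96.3 and 146 CPM in libraries 1 to 3 and 57.4 and 67.6 CPM in libraries 4 and 5, against 36.5 to 50.6 CPM at day 14. Both calls against control were lost in a fit of these 2 groups alone (0.0639 and 0.0988). At day 7 none of the 11 passed (3 at an unadjusted p below 0.05, against 21.1% of all genes, 2 with DESeq2, 0 with limma-voom), and Jak1, the most abundant, changed by 0.04 ± 0.12 (adjusted p = 0.881).

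Targets of the family were mostly uncalled. None of the 22 ISRE-type genes passed in any comparison in the edgeR fit with TMM scaling. At an unadjusted p below 0.05 there were 2, 3 and 4, where 21.1%, 22.4% and 14.8% of all genes were. DESeq2 called 0, 3 and 1 of the 22 and limma-voom 0, 1 and 0, in either direction. Over all genes DESeq2 called 1551 of 18425 at day 14 against control, and 2.9% as lower at day 14 against day 7. Limma-voom called 2.52% of all genes lower at day 14 against control. Of their 22 changes, 7, 17 and 20 were negative at day 7 against control, day 14 against control and day 14 against day 7, where 43.8%, 42.3% and 40.6% of all genes were. Their median log2 changes were 0.19, -0.32 and -0.30, against 0.07, 0.12 and 0.12 over all genes. With library totals 6, 12 and 17 were negative, and 8, 18 and 20 lay below the median of all genes. At day 14 against control 1 of the 22 was called higher with library totals, and 1 with RLE scaling. Scaling also moved the calls over all genes, as given below. Parp14, the most abundant, changed by 0.30 ± 0.16, 0.19 ± 0.18 and -0.11 ± 0.17 (adjusted p = 0.302, 0.528 and 0.788). Of 22 genes that Irf1 and interferon gamma induce, 1 passed. It was the inflammatory caspase gene Casp1, higher at day 14 against control, where 1.33% of all genes were called higher. Casp1 went from 12.6 ± 5.04 to 28.8 ± 12.5 CPM (log2 change 1.19 ± 0.32, edgeR adjusted p = 0.0487). This call was lost in 12 of 27 alternatives, among them without control library 1, 3, 4 or 5, day 7 library 4, 6 or 7, or day 14 library 3 or 4 (adjusted p = 0.0514 to 0.137). Changes of this list were negative for 5, 14 and 16 of 22 genes, against the same 43.8%, 42.3% and 40.6% of all genes. The medians were 0.10, -0.13 and -0.16, against 0.07, 0.12 and 0.12 over all genes. With library totals 4, 8 and 12 genes of this list were negative, and 11, 16 and 18 lay below the median of all genes. Library totals called 4 genes of this list higher at day 14 against control and 2 at day 14 against day 7. With RLE scaling 1 gene of this list was called higher in each of these comparisons. B2m, its most abundant gene and the light chain of MHC class I, changed by 0.01 ± 0.19 at day 7 against control (0.979) and -0.37 ± 0.21 at day 14 against day 7 (0.434). Irf1 had an r of 0.55 with the index of this list (10 of 22 genes above 0.5).

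**Figure D4:**
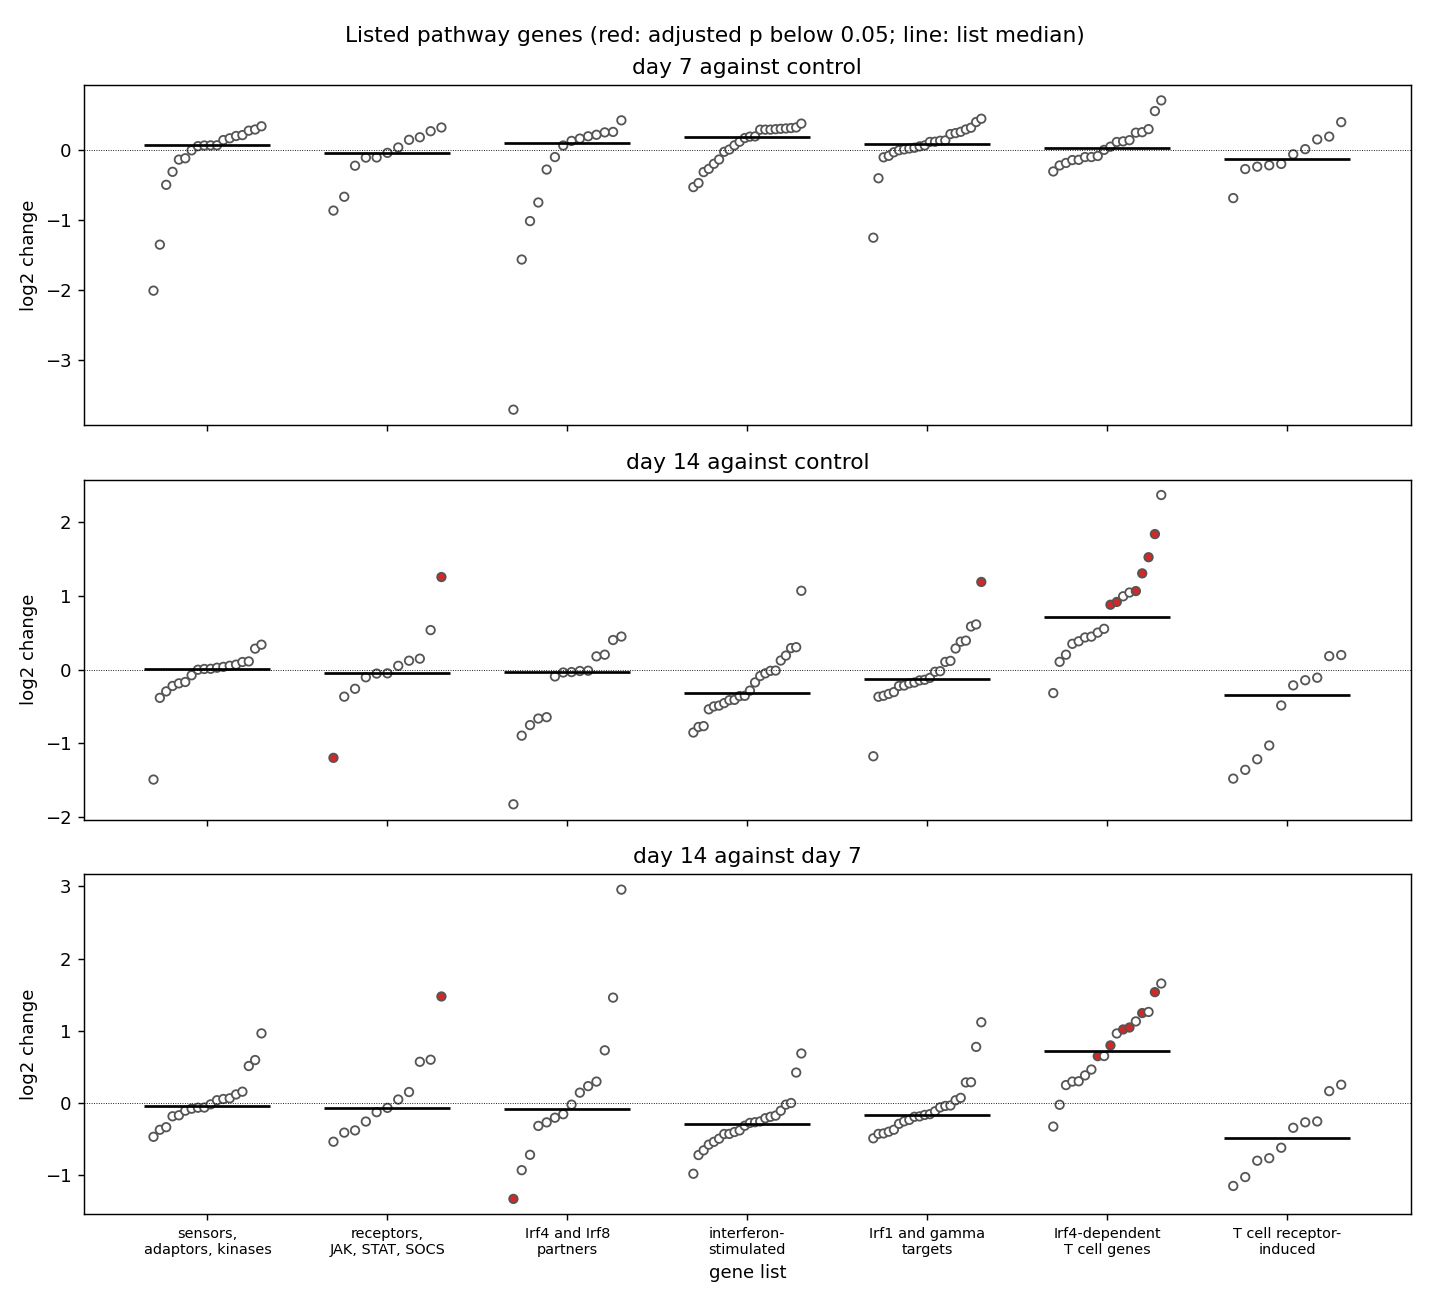
Log2 change (y axis) of every tested gene of 7 pathway lists (x axis) in the 3 comparisons; red points have an edgeR adjusted p below 0.05 and lines mark each list's median. Red points are most frequent among Irf4-dependent genes at day 14 (6 of 18 in either comparison), while none of 22 ISRE-type genes is red.

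Genes whose pattern over the 16 libraries was most like a member's were ranked by Pearson r of log2(CPM + 1) among genes of at least 5 CPM. For Irf1 they were L1cam, Ranbp10 and Mob3b (0.92, 0.92 and 0.91), and L1cam stood at 84.5 ± 11.2, 98.9 ± 7.20 and 57.0 ± 17.9 CPM in controls, day 7 and day 14. Nearest to Irf7 came Sugt1, Rtp4 and Oasl1 (0.90, 0.90 and 0.89), of which Rtp4 and Oasl1 are interferon-stimulated genes. For Irf9 these were Chd3, Herc2 and Parp10, led by an r of 0.91. Tgif1, Fosl2 and Stat5a (0.94, 0.93 and 0.93) were nearest to Irf4, and Zeb2, Plac8 and Dstn (0.97, 0.96 and 0.96) to Irf8. Zeb2 spanned 8.08 to 198 CPM in controls, 2.75 to 23.4 CPM at day 7 and 5.93 to 133 CPM at day 14. Gsr led for Irf5 (0.95), Erbb2ip for Irf2 (0.94), Slc9a3r1 for Irf3 (0.94) and Fam107b for Irf2bp2 (0.93). Such maxima over many ranked genes and 16 libraries are descriptions only.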

How the data were processed

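RNA was measured in CD4 T cells from 16 mouse spleens. Per the submitters' processing notes, the tools were HTSeq 0.6.1, cutadapt 1.8.1 and bcl2fastq 2.20.0.422 and the build mm10; aligner, annotation and strand setting are not given in the sources used here. The deposited table held raw read counts per gene, made by the authors without normalization. Its 5 closing lines name no gene and stayed out of library sizes; the largest counted reads outside gene models (47.1% to 69.8% of all counts). Groups came from the labels, and each library was taken as 1 mouse, as the design text counts mice.

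Counts were tested on the whole table in R 4.3.3 with the quasi-likelihood test of edgeR 4.0.16, using TMM factors, filterByExpr (18430 genes kept, 5049 removed), 1 fit of all 16 libraries and Benjamini-Hochberg adjustment at a threshold of 0.05. The biological coefficient of variation was 54.5%. Standard errors (SE) are the absolute log2 change divided by the root of F. CPM are TMM-scaled; levels between genes were divided by the exon length of GENCODE's GRCm38 annotation. The test was checked on simulated counts. Alternatives were RLE scaling, library totals, other filters, limma-voom (limma 3.58.1), DESeq2 1.42.0, the 2 compared groups alone, a replicate block, and leaving out libraries; Y-linked alternatives were added after the data were seen.

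The members and lists were chosen with earlier results of these data known. Some genes of the family and its pathway are not reported here. The members listed are all named; of each other list, per comparison, up to 4 called genes with the largest change, or else the most abundant gene; and for each member the genes with the nearest pattern. Correlated genes, cell type markers and leading genes outside this rule are given as descriptions. Python 3.11.15, pandas 2.3.3 and Matplotlib 3.10.9 made tables and figures.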

Additional observations from a re-analysis of the deposited data

Results flagged for a closer look

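In day 14 library 4, Irf8 at 94.0 CPM and Irf5 at 13.7 CPM stood far from the other 3 libraries of the group, which lay at 9.66 to 16.1 and 4.41 to 4.80 CPM. These were 2 of 27 checks of a gene in a group, and chance alone marks about 1 in 20.

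For Irf1 the change against control differed between the times, by -0.70 on the log2 scale (day 14 minus day 7, edgeR adjusted p = 0.0200). As both changes use the same controls, this is the day 14 against day 7 comparison itself.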

How the results depend on the processing

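No result turned to the opposite direction with a call in any of the 27 alternatives per comparison. At day 7 against control the count of called members (0) became 3 with DESeq2, 1 with the Y-linked covariate and 1 in the 11 libraries with few Y-linked transcripts, and 0 to 3 when 1 library was left out. Over all genes (2) it was 1603 with DESeq2, 4 in the 2 groups alone, 0 without control libraries 1 and 2, 327 with the covariate and 138 in the 11 libraries, and 0 to 1455 when 1 library was left out. At day 14 against control the members called (0) became 1 with DESeq2 (Irf2bp2) and 1 with the covariate (Irf1, -0.48, adjusted p = 0.0485), and 0 to 3 when 1 library was left out. Over all genes (577) the count was 381 without a filter, 1003 with limma-voom, 1551 with DESeq2, 4 in the 2 groups alone and 942 without control libraries 1 and 2, and 65 to 1458 when 1 library was left out. At day 14 against day 7 the members called (1) became 2 with limma-voom, with DESeq2, in the 2 groups alone and without control libraries 1 and 2, and 3 with the covariate, and 0 to 3 when 1 library was left out. Over all genes (178) the count was 707 with DESeq2, 712 in the 2 groups alone, 838 without control libraries 1 and 2, 972 with the covariate and 556 in the 11 libraries, and 25 to 531 when 1 library was left out. The cause of these shifts was not tested. Irf1 at day 14 against day 7 kept its direction in all 27 alternatives and its call in 22.

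Scaling changed the split of calls over all genes. At day 14 against control 246 were higher and 331 lower with TMM, 289 and 250 with RLE, and 699 and 100 with library totals; against day 7 the splits were 76 and 102, 87 and 72, and 150 and 41.

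Groups share replicate numbers but hold different mice. Same-numbered libraries of different groups had correlations of their deviations from -0.34 to 0.30 (13 pairs, median -0.08), so the numbers do not pair them. With the replicate block the calls over all genes were 35, 46 and 28 in the 3 comparisons, and 0 members passed at day 14 against day 7 (Irf1 -0.76, adjusted p = 0.0577).

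Low counts limit Irf5, with as few as 31 reads in a library, and Irf8, with 81; both were in day 7 library 3, the library with the lowest gene count (14493764).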
